A study of Mus musculus with 12 samples.

Results

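The genes described here are 43 TNF superfamily ligands and receptors, 17 ligands and 26 receptors, chosen by gene symbol from a list of the family's mouse members among the 54532 Ensembl genes of the expression table. All 43 have a row. TNF superfamily ligands are trimeric proteins, mostly made on the cell membrane and released by shedding, that cluster receptors on the same or a neighbouring cell. Receptors with a death domain, such as Tnfrsf1a and Fas, can start apoptosis or necroptosis, many others recruit TRAF adaptors and activate NF-κB, and some are decoys that bind a ligand without signalling. In vessels the family is best known for inflammatory activation of endothelium and smooth muscle, and in lymphoid tissue for costimulation of T cells, survival of B cells and the organisation of lymph nodes.

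RNA-Seq was performed on abdominal aortas (infrarenal segment) of 12 male mice in 4 groups of 3. CCN2fl/fl mice carry floxed CCN2 alleles and no Cre. CCN2SMCΔ mice carry the same alleles with Myh11-Cre-ERT2, an inducible Cre driven by a smooth muscle myosin promoter. The design directs deletion of CCN2 to smooth muscle cells (SMCs) and not to the other cells of the wall. Values from whole tissue do not show in which cells it occurred. All mice, controls included, received 5 injections of tamoxifen at 8 weeks of age and after a further 2 weeks were infused through pumps for 7 days with saline (CFS, CCN2fl/fl; CSS, CCN2SMCΔ) or with 500 ng/kg/min Ang II (CFA, CCN2fl/fl; CSA, CCN2SMCΔ). The control groups lack the Cre transgene, so the Cre itself cannot be told apart from the deletion. Each library came from 1 mouse.

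Values are FPKM, the fragment count of a gene scaled by its transcript length and by the sequenced fragments of its library, so that levels can be compared between genes. The deposited FPKM were further rescaled library by library in a way not given in the sources used here, at 0.902 to 0.95 times plain FPKM from the recovered fragments in CSA and 0.986 to 1.078 times in the other groups. The libraries held 14558580 to 23107811 recovered fragments. Ccn2, the targeted gene, measured 328 ± 71.9 FPKM (SD, n = 3) in CSA and 894 ± 290 in CFA (log2 fold change -1.41, adjusted p 0.00622 by limma), and 554 ± 106 in CSS and 766 ± 318 in CFS (log2 fold change -0.40, adjusted p 1), with overlapping groups under saline. The defining SMC markers of the labelled tissue were present in every library, Myh11 at 695 to 1190 FPKM in CFS, CSS and CFA and at 35.4 to 46.5 FPKM in CSA. CSA mouse 03 stood apart from its replicates: its profile differed from those of CSA mice 01 and 02 by 1.21 and 1.20 log2 units (root mean square over the tested genes), against 0.505 between those mice and 0.586 to 0.743 between replicates of the other groups, and it was the library with the fewest fragments. Values without it are therefore also given for the members that it moved most. In the saline groups, summed skeletal muscle markers were at 162 FPKM in CFS mouse 68 and 263 FPKM in CSS mouse 55, against 2.71 to 5.95 FPKM in the other 10 mice, and summed adipocyte markers were at 2910 FPKM in CFS mouse 70, against 159 to 967 FPKM elsewhere. CFS mouse 69 had summed endothelial markers at 141 FPKM, against 486 and 483 in CFS mice 68 and 70. Its summed erythrocyte markers were at 1250 FPKM, against 153 and 134 in those mice.

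Differences were tested with limma on log2(FPKM + 0.1) over the 14676 genes with at least 1 FPKM in at least 3 libraries. A difference was called where its log2 fold change exceeded 1.5 in either direction with a limma p-value under 0.05 after adjustment. Of the 43 members, 32 were tested (10 ligands and 22 receptors) and 11 were under the filter. Of the tested members, 11 reached the filter only with the help of the CSA libraries (Tnf, Ltb, Tnfsf8, Tnfsf9, Tnfsf11, Tnfsf14, Tnfrsf4, Cd40, Tnfrsf9, Tnfrsf13b and Relt) and had to be high there. Counts of called members and medians over the tested members are therefore descriptions, and are no evidence about the family.

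Between CSA and CFA, the comparison that asks what SMC deletion of CCN2 changes under Ang II, 14 of the 32 tested members were called higher and 1 lower. Of all tested genes, 8.95% were called higher and 8.27% lower in this comparison. The ligands that rose were Tnf, Ltb, Tnfsf8, Tnfsf9, Tnfsf11 and Tnfsf14. Among receptors, Tnfrsf1b, Tnfrsf4, Cd40, Tnfrsf9, Tnfrsf13b, Tnfrsf21, Tnfrsf23 and Relt rose, and Tnfrsf19 fell. All 11 members that needed the CSA libraries to pass the filter were among the 14, so that 3 of the 21 that passed without them (Tnfrsf1b, Tnfrsf21 and Tnfrsf23) were called higher. The median log2 fold change was 1.18 over the 32 tested members, 2.66 over the ligands and 0.63 over the receptors, beside -0.04 over all tested genes. These medians are raised by the 11 members that had to be high in CSA, whose median was 3.44, against 0.38 over the other 21. Leukocyte markers were higher in the same mice, with the summed level of 14 macrophage and monocyte markers at 2610 to 2920 FPKM in CSA and 381 to 798 FPKM in CFA. Their part in the values of the members was not tested, and in bulk aorta fewer cells of a type and less RNA per cell cannot be told apart.

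**Figure D1:**
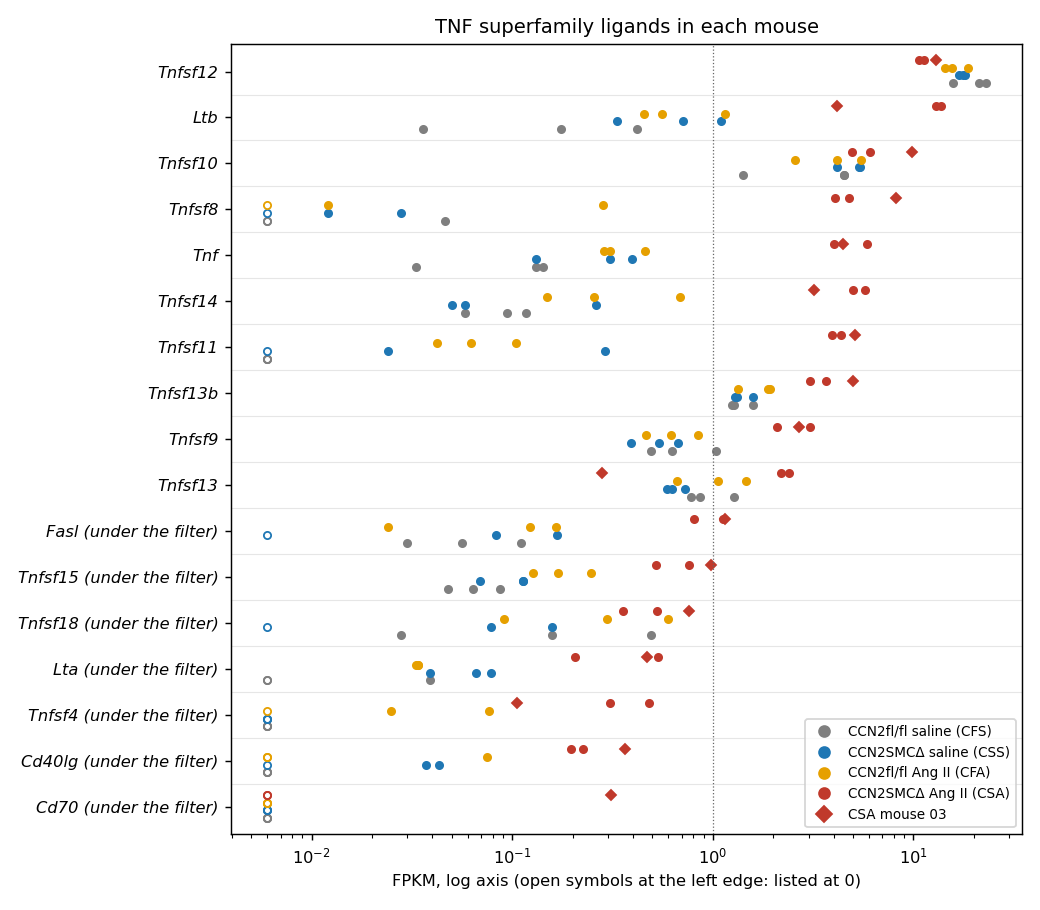
FPKM of the 17 ligands in each of the 12 mice on a log axis, coloured by group, with open symbols at the left edge for values listed at 0 and a dotted line at 1 FPKM. The CSA mice lie to the right of the other 9 for Ltb, Tnfsf8, Tnf, Tnfsf14, Tnfsf11 and Tnfsf9, whereas Tnfsf12 lies to the left.

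Tnf, the founding cytokine of the family and a chief product of activated macrophages, measured 5.89, 4.03 and 4.46 FPKM in CSA mice 01, 02 and 03. It measured 0.308, 0.460 and 0.288 FPKM in CFA, 0.394, 0.132 and 0.308 in CSS, and 0.132, 0.033 and 0.142 in CFS. The CSA mice lay above all others without overlap, and the log2 fold change from CFA to CSA was 3.44 (SE 0.40, n = 3 per group, adjusted p 6.42e-05 by limma), and 2.09 with a pseudocount of 1. Ltb, the membrane-anchoring subunit of lymphotoxin, is needed for lymph node formation. Its values were 12.9, 13.7 and 4.18 FPKM in CSA, 0.454, 1.15 and 0.560 in CFA, 1.10, 0.712 and 0.333 in CSS, and 0.036, 0.176 and 0.421 in CFS. CSA mouse 03 was the lowest of its group and still above the other 9 mice, with a log2 fold change of 3.57 (SE 0.62, adjusted p 0.000865) and of 4.12 without that mouse. Lta, the soluble lymphotoxin subunit, was under the filter, at 0.205 to 0.534 FPKM in CSA and 0 to 0.078 FPKM in the other groups. Lta, Tnf and Ltb lie next to each other on chromosome 17 within 10.9 kb (chr17:35194439-35205351, GRCm38).

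Tnfsf14 (LIGHT), a ligand of T cells and myeloid cells that binds the lymphotoxin-β receptor and Tnfrsf14, measured 5.73, 5.00 and 3.18 FPKM in CSA. The CFA mice were at 0.149, 0.689 and 0.255 FPKM, the CSS mice at 0.058, 0.263 and 0.050, and the CFS mice at 0.117, 0.058 and 0.094. CSA did not overlap any other group, and the log2 fold change against CFA was 3.48 (SE 0.53, adjusted p 0.000344), and 2.04 with a pseudocount of 1. Tnfsf8 (CD30 ligand), which is made by activated T cells and myeloid cells, was almost undetected outside CSA. It stood at 4.76, 4.09 and 8.18 FPKM in CSA and 0.012, 0.285 and 0 in CFA, at 0.028, 0 and 0.012 in CSS and at 0, 0 and 0.046 in CFS. These values correspond to 1175 fragments over the CSA mice, 24 over CFA, 3 over CSS and 3 over CFS. In this gene mouse 03 was the highest of the CSA mice, and without it the log2 fold change against CFA was 4.79. The log2 fold change was 5.08 (SE 0.60, adjusted p 6.46e-05), a size that rests on the pseudocount, since it was 2.56 with a pseudocount of 1, and on CFA mouse 72, which held 23 of the 24 CFA fragments and without which it was 5.71.

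Tnfsf11 (RANKL), the osteoclast differentiation factor that is also made by activated T cells and stromal cells, measured 4.36, 3.94 and 5.14 FPKM in CSA. Its values were 0.062, 0.105 and 0.042 FPKM in CFA, 0.024, 0.290 and 0 in CSS, and it was listed at 0 in the 3 CFS mice, where 3 fragments would have given 0.0717 to 0.0778 FPKM. The CSA mice lay above the other 9, whose groups overlapped in part, with 561 fragments over the CSA mice against 10 over CFA. The log2 fold change was 4.76 (SE 0.56, adjusted p 6.22e-05), and 2.35 with a pseudocount of 1. Tnfsf9 (4-1BB ligand), a costimulatory ligand of antigen-presenting cells, differed less. It measured 3.05, 2.08 and 2.68 FPKM in CSA, 0.463, 0.840 and 0.622 in CFA, 0.542, 0.669 and 0.392 in CSS, and 0.629, 1.04 and 0.494 in CFS. Each CSA mouse lay above the other 9, with a log2 fold change of 1.88 (SE 0.33, adjusted p 0.00094), and of 1.13 with a pseudocount of 1, where it was no longer called. The annotation gives 14.9% of its exonic bases to a further gene as well.

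The other 4 tested ligands were not called between CSA and CFA. Tnfsf13b (BAFF), a survival factor of B cells, measured 3.68, 3.05 and 4.98 FPKM in CSA and 1.88, 1.92 and 1.34 in CFA, groups that did not overlap (log2 fold change 1.13, SE 0.22, adjusted p 0.00188), but it was short of the fold limit. Tnfsf12 (TWEAK), the ligand with the highest mean in every group, was at 15.8 to 23.1 FPKM in CFS, 16.9 to 18.1 in CSS and 14.4 to 18.7 in CFA. The CSA mice were below all of them at 10.6 to 13 FPKM (log2 fold change -0.48, SE 0.16, adjusted p 0.0324). Tnfsf10 (TRAIL), an apoptosis-inducing ligand, was at 4.97 to 9.86 FPKM in CSA and 2.57 to 5.46 FPKM in CFA, which overlapped (log2 fold change 0.77, SE 0.43, adjusted p 0.185). Mouse 03 was the highest of the CSA mice, and without it the value was 0.49. Tnfsf13 (APRIL), a plasma cell survival factor, separated the CSA mice from each other. It measured 2.41 and 2.19 FPKM in CSA mice 01 and 02 and 0.279 in mouse 03, against 0.662 to 1.47 FPKM in CFA, and its log2 fold change of 0.21 (SE 0.62, adjusted p 0.811) became 1.10 without mouse 03 and -0.26 or -0.20 without mouse 01 or 02. Tnfsf13 and Tnfsf12 share 60.0% and 48.3% of their exonic bases with other annotated genes, including a read-through gene of both, so the authors' counting could have divided or dropped their fragments.

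The receptors of the TNF and lymphotoxin ligands were among the more abundant members. Tnfrsf1a (TNFR1, the widely expressed death domain receptor of TNF) measured 84.0, 70.6 and 36.6 FPKM in CSA, 49.1 to 49.7 in CFA, 51.0 to 54.6 in CSS and 44.8 to 53.4 in CFS. Mouse 03 lay below every control mouse and mice 01 and 02 above them, and the difference between CSA and CFA was not called (log2 fold change 0.28, SE 0.24, adjusted p 0.389), nor without mouse 03, where it was 0.64. Tnfrsf1b (TNFR2), the receptor of leukocytes and endothelium that binds membrane TNF best, was called. It measured 62.8, 52.3 and 32.0 FPKM in CSA and 10.6, 10.4 and 7.33 in CFA, beside 9.96, 9.78 and 9.22 in CSS and 7.28, 7.57 and 6.71 in CFS. The 3 CSA mice lay above the other 9 (log2 fold change 2.33, SE 0.23, adjusted p 1.8e-05, and 2.61 without mouse 03). The group means of Tnfrsf1b and Tnfrsf1a were 9.45 and 49.5 FPKM in CFA and 49.0 and 63.7 FPKM in CSA.

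**Figure D2:**
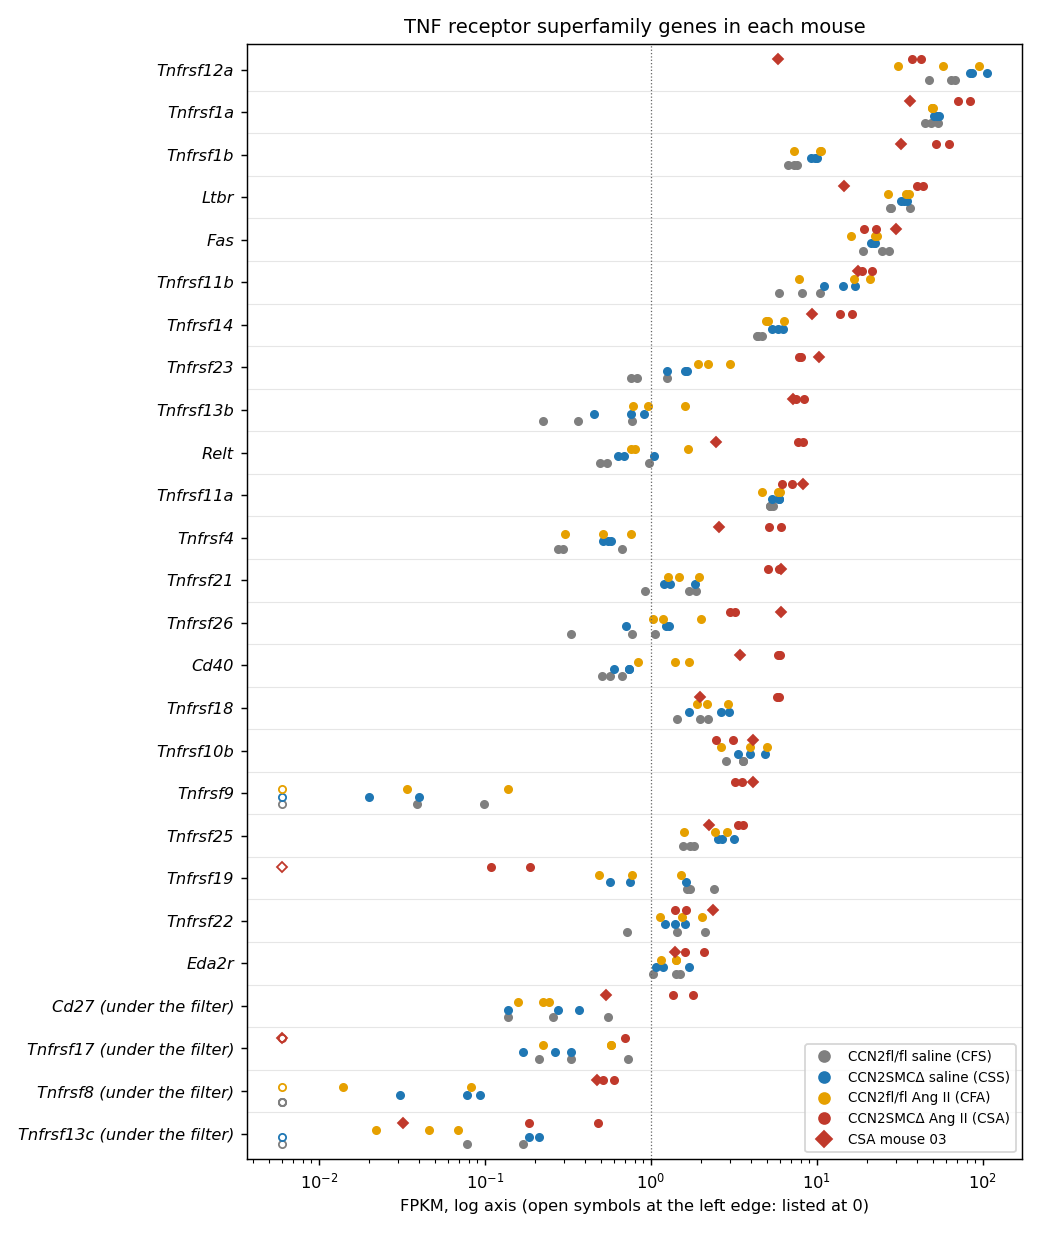
FPKM of the 26 receptors in each of the 12 mice on a log axis, coloured by group, with CSA mouse 03 as a diamond, open symbols for values listed at 0 and a dotted line at 1 FPKM. Tnfrsf1b, Tnfrsf23, Tnfrsf13b, Tnfrsf4, Tnfrsf21, Cd40 and Tnfrsf9 lie to the right in the CSA mice, and mouse 03 lies to the left of mice 01 and 02 for Tnfrsf12a, Tnfrsf1a, Ltbr and Relt.

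Ltbr, the receptor of Ltb and Tnfsf14 on stromal cells, did not follow its ligands. It measured 43.4, 39.9 and 14.6 FPKM in CSA and 35.8, 34.4 and 26.7 in CFA, with 27.6 to 36.3 FPKM across the saline groups. The CSA mice lay on both sides of the controls (log2 fold change -0.13, SE 0.34, adjusted p 0.796), and the value was 0.38 without mouse 03. Tnfrsf14 (HVEM), the other receptor of Tnfsf14, measured 16.3, 13.8 and 9.35 FPKM in CSA and 4.92, 6.36 and 5.05 in CFA. These groups did not overlap, and the log2 fold change of 1.23 (SE 0.19, adjusted p 0.000375) was short of the fold limit. It was 1.46 without mouse 03, still short of that limit. Fas, the death receptor of Fasl, was at 19.3 to 30.1 FPKM in CSA and 16.1 to 23.1 FPKM in CFA and was not called (log2 fold change 0.22, SE 0.20, adjusted p 0.398). Without mouse 03 the value was 0.05. Fas was the 1 member of 43 whose values did not convert to whole fragments with the annotated length, so its absolute level is less certain.

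Costimulatory receptors of lymphocytes were low in the 3 control groups. Tnfrsf4 (OX40), induced on activated T cells, measured 5.16, 6.08 and 2.58 FPKM in CSA, 0.303, 0.759 and 0.518 in CFA, 0.552, 0.514 and 0.572 in CSS, and 0.674, 0.274 and 0.297 in CFS. All CSA mice lay above all others (log2 fold change 2.89, SE 0.42, adjusted p 0.000256, and 1.83 with a pseudocount of 1), mouse 03 lowest of the 3. The value was 3.25 without that mouse. Tnfrsf9 (4-1BB), which is induced on activated T cells and NK cells, measured 3.22, 3.53 and 4.10 FPKM in CSA, 0.034, 0.138 and 0 in CFA, 0.040, 0.020 and 0 in CSS, and 0.099, 0.039 and 0 in CFS. The CSA mice were close together and far above the rest, with 553 fragments over the group against 10 over CFA, 3 over CSS and 7 over CFS. Its log2 fold change was 4.65 (SE 0.52, adjusted p 4.48e-05), and 2.12 with a pseudocount of 1. Cd40, the receptor through which antigen-presenting cells receive T cell help, stood at 5.97, 5.84 and 3.43 FPKM in CSA and 1.39, 1.69 and 0.831 in CFA, against 0.743, 0.602 and 0.742 in CSS and 0.667, 0.565 and 0.511 in CFS. CFA mice also lay above both saline groups, and CSA above CFA (log2 fold change 1.89, SE 0.29, adjusted p 0.000411). With a pseudocount of 1 it was 1.39 and no longer called, and without mouse 03 it was 2.15. Tnfrsf18 (GITR), known from regulatory T cells, measured 5.75 and 5.88 FPKM in CSA mice 01 and 02 but 1.97 in mouse 03, within the CFA range of 1.89 to 2.91. It was not called (log2 fold change 0.81, SE 0.39, adjusted p 0.124, and 1.31 without mouse 03). Of its exonic bases, 27.2% are also annotated to a further gene. Tnfrsf25 (DR3), the receptor of Tnfsf15, was at 2.24 to 3.58 FPKM in CSA and 1.59 to 2.88 in CFA (log2 fold change 0.41, SE 0.24, adjusted p 0.197). Without mouse 03 the log2 fold change was 0.61 (adjusted p 0.0426 by limma), short of the fold limit.

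Among receptors of B cell factors, Tnfrsf13b (TACI), which binds BAFF and APRIL, measured 8.39, 7.53 and 7.23 FPKM in CSA, 0.955, 1.60 and 0.782 in CFA, 0.911, 0.761 and 0.454 in CSS, and 0.362, 0.773 and 0.225 in CFS. It rose (log2 fold change 2.74, SE 0.38, adjusted p 0.000209) with no overlap between CSA and the others. The other BAFF or APRIL receptors stayed under the filter. Tnfrsf17 (BCMA), a receptor of plasma cells, was listed at 0, 0.694 and 0 FPKM in CSA and at 0.225 to 0.579 FPKM in CFA. Tnfrsf13c (BAFF receptor), the defining BAFF receptor of mature B cells, was at 0.032 to 0.481 FPKM in CSA and 0.022 to 0.069 FPKM in CFA.

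Among receptors known from bone, osteoclasts and death receptor biology, Tnfrsf11a (RANK) was at 6.19 to 8.24 FPKM in CSA and 4.67 to 5.97 in CFA (log2 fold change 0.38, SE 0.14, adjusted p 0.0481) and was short of the fold limit. Without mouse 03 the log2 fold change was 0.28 (adjusted p 0.0857 by limma). Tnfrsf11b (osteoprotegerin), the soluble decoy of RANKL and TRAIL, was at 17.6 to 21.6 FPKM in CSA and 7.77 to 21 in CFA (log2 fold change 0.45, SE 0.33, adjusted p 0.305). The value was 0.03 without CFA mouse 74 and 0.75 without CFA mouse 72. With Tnfsf11 at 4.48 ± 0.606 FPKM in CSA and 0.0697 ± 0.0324 in CFA (SD, n = 3), the ligand differed between these groups while neither of its receptors was called. Tnfrsf10b (the TRAIL death receptor of mice) was at 2.46 to 4.13 FPKM in CSA and 2.66 to 4.99 FPKM in CFA (log2 fold change -0.24, SE 0.25, adjusted p 0.487). Without mouse 03 the value was -0.43. Tnfrsf21 (DR6), a death domain receptor known from neurons and T cells, measured 5.95, 5.05 and 6.07 FPKM in CSA, 1.27, 1.94 and 1.48 in CFA, 1.83, 1.20 and 1.3 in CSS, and 1.87, 0.924 and 1.71 in CFS. The CSA mice lay above the other 9 (log2 fold change 1.81, SE 0.27, adjusted p 0.000317), and with a pseudocount of 1 the value was 1.39 and no longer called. Relt, a little studied TRAF-binding member of blood cells, measured 7.70, 8.28 and 2.47 FPKM in CSA, 0.798, 1.68 and 0.762 in CFA, 1.05, 0.691 and 0.631 in CSS, and 0.544, 0.978 and 0.495 in CFS. Mouse 03 was closest to the controls and did not overlap them (log2 fold change 2.31, SE 0.47, adjusted p 0.00255, and 2.86 without it).

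Tnfrsf22, Tnfrsf23 and Tnfrsf26 are mouse receptors in a cluster on chromosome 7 (chr7:143607659-143685872, GRCm38), of which Tnfrsf22 and Tnfrsf23 are decoys of TRAIL. Tnfrsf23 measured 7.76, 8.04 and 10.3 FPKM in CSA, 2.22, 3.0 and 1.93 in CFA, 1.60, 1.25 and 1.65 in CSS, and 1.26, 0.756 and 0.820 in CFS. It was ordered CFS or CSS below CFA below CSA, the last step with a log2 fold change of 1.84 (SE 0.23, adjusted p 0.000102). Tnfrsf26 measured 3.21, 2.99 and 6.04 FPKM in CSA and 2.0, 1.19 and 1.03 in CFA, with 0.704 to 1.29 FPKM in CSS and 0.332 to 1.06 in CFS. Its log2 fold change of 1.46 (SE 0.42, adjusted p 0.0179) was just short of the fold limit against CFA, and it was called without CFA mouse 71, CSA mouse 01 or CSA mouse 02 (1.72, 1.59 and 1.64) and with equal FPKM totals (1.54). Without CSA mouse 03, the highest of its group, it was 1.14 (adjusted p 0.0528 by limma), and without CFA mouse 72 or 74 it was 1.37 and 1.28. Tnfrsf22 was at 1.40 to 2.35 FPKM in CSA and 1.14 to 2.05 in CFA, and was not called (log2 fold change 0.18, SE 0.36, adjusted p 0.711). The coding sequences of Tnfrsf22 and Tnfrsf23 are 80.6% identical over their alignment, those of Tnfrsf26 47.6% and 44.6% identical to them, so fragments of Tnfrsf22 and Tnfrsf23 could in part have been assigned to the wrong gene or dropped.

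Tnfrsf19 and Tnfrsf12a had lower means in CSA than in every other group. Tnfrsf19 (TROY), a receptor of progenitor and stromal cells linked to Wnt signalling, measured 0.187 and 0.109 FPKM in CSA mice 01 and 02 and was listed at 0 in mouse 03, against 0.775, 0.487 and 1.51 in CFA, 0.568, 1.63 and 0.747 in CSS, and 1.66, 2.40 and 1.71 in CFS. The CSA mice lay below the other 9, at 29 fragments over the group against 281 in CFA (log2 fold change -2.37, SE 0.52, adjusted p 0.00397, and -1.94 without mouse 03). With a pseudocount of 1 it was -0.78 and no longer called. Tnfrsf12a (Fn14), the receptor of TWEAK and a gene induced in injured tissue, had the highest mean of all members in each of the 3 other groups, at 47.2, 68.1 and 64.0 FPKM in CFS, 84.1, 106 and 86.5 in CSS and 57.4, 94.2 and 30.9 in CFA. It measured 37.2 and 42.1 FPKM in CSA mice 01 and 02 and 5.84 in mouse 03. CSA overlapped CFA and was not called against it (log2 fold change -1.39, SE 0.64, adjusted p 0.109). The value was -0.47 without mouse 03 and -1.89, and called, without mouse 02. Eda2r (XEDAR), a p53-inducible receptor, was at 1.41 to 2.08 FPKM in CSA and 1.15 to 1.42 in CFA (log2 fold change 0.32, SE 0.24, adjusted p 0.318).

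The 11 members under the filter were Lta, Tnfsf4, Tnfsf15, Tnfsf18, Cd40lg, Cd70, Fasl, Cd27, Tnfrsf8, Tnfrsf13c and Tnfrsf17. Of these, Fasl, the killing ligand of cytotoxic T and NK cells, had 1.12, 0.803 and 1.15 FPKM in CSA and 0.024 to 0.166 in CFA. Cd27, a receptor of T and memory B cells, was at 1.80, 1.36 and 0.533 FPKM in CSA and 0.158 to 0.243 in CFA. Tnfrsf8 (CD30), the receptor of Tnfsf8 on activated lymphocytes, was at 0.472 to 0.598 FPKM in CSA and 0 to 0.082 in CFA, or 105 and 7 fragments. Tnfsf15 (TL1A), an endothelial and myeloid ligand, was at 0.521 to 0.975 FPKM in CSA and 0.127 to 0.247 in CFA. Cd40lg, the T cell ligand of Cd40, was at 0.197 to 0.365 FPKM in CSA and 0 to 0.075 in CFA. Tnfsf4 (OX40 ligand) was at 0.106 to 0.481 FPKM in CSA and 0 to 0.077 in CFA, Tnfsf18 (GITR ligand) at 0.358 to 0.758 and 0.091 to 0.6, and Cd70, the ligand of Cd27, was listed at 0 in every library but CSA mouse 03 at 0.310. A fit without the filter called Lta, Tnfsf15, Cd40lg, Fasl, Cd27 and Tnfrsf8 higher in CSA than in CFA, with log2 fold changes from 1.56 to 2.52, at levels where few fragments were counted.

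Set out as ligand and receptor pairs, both partners were called higher in CSA than in CFA in 2 of the 15 known pairs with both partners tested, of 27 in all. These were Tnf with Tnfrsf1b and Tnfsf9 with Tnfrsf9, where Tnfsf9 was no longer called with a pseudocount of 1. In 6 pairs the ligand was called higher and the tested receptor was not called, namely Tnf with Tnfrsf1a, Ltb and Tnfsf14 with Ltbr, Tnfsf14 with Tnfrsf14, and Tnfsf11 with Tnfrsf11a and Tnfrsf11b. In 3 pairs the receptor was called higher and the tested ligand was not, Tnfsf10 with Tnfrsf23 and both Tnfsf13 and Tnfsf13b with Tnfrsf13b. Tnfsf12 and Tnfrsf12a, at 11.6 and 28.4 FPKM in CSA and 16.3 and 60.8 FPKM in CFA, had neither partner called. Of all tested genes, 8.95% were called higher in this comparison. All ligands called in these pairs passed the filter only with the help of CSA and had to be high there. The same holds for the called receptors Tnfrsf9 and Tnfrsf13b, whereas Tnfrsf1b and Tnfrsf23 passed without that help. The uncalled receptors of the 6 pairs passed without that help, so the counts of pairs are descriptions.

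Promoters of the members were searched for NF-κB and AP-1 motifs, the factors that many receptors of the family activate. RefSeq gave the sequence from 250 bases before to 50 bases after the start (GRCm38.p6) for 33 of the 43 members. The NF-κB consensus, on either strand, matched in 3 of these 33 (Ltb, Tnfrsf8 and Tnfrsf9), beside 5.14% of all 27025 genes with a promoter. The AP-1 motif, TGACTCA or TGAGTCA, which are reverse complements of each other and were searched on both strands, matched in 6 of 33 (Tnfsf13, Tnfsf13b, Tnfsf14, Fas, Tnfrsf8 and Tnfrsf9), beside 5.95% of genes. The 4 sequences below, with the matches in capitals, were chosen after the matches were seen, from members whose CSA values lay above every control mouse; Tnfsf13b is a further such member with an AP-1 match. The Ltb promoter (chr17:35194257-35194556, plus strand) holds an NF-κB match that begins 87 bases before the start. That of Tnfrsf9 (chr4:150927749-150928048, plus strand) is the promoter of an internal start 13437 bases into the GENCODE gene, and holds 2 overlapping NF-κB matches and an AP-1 match, the first 43 and the last 15 bases before the start. The Tnfrsf8 promoter (chr4:145315115-145315414, minus strand) holds an NF-κB match 168 bases and an AP-1 match 132 bases before the start. The Tnfsf14 promoter (chr17:57194132-57194431, minus strand) holds an AP-1 match 160 bases before the start. A match is a description of letters and not of binding.
Ltb: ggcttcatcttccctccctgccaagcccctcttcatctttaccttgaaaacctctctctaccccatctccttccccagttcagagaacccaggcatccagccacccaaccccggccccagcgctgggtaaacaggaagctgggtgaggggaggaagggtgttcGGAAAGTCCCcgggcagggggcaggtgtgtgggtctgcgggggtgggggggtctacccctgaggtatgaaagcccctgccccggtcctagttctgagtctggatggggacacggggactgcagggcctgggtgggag
Tnfrsf9: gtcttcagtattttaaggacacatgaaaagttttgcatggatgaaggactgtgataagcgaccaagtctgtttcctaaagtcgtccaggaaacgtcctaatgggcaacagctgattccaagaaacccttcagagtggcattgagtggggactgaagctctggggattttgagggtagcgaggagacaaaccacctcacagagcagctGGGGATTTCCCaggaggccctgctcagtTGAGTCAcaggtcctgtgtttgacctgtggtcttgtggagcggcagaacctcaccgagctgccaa
Tnfrsf8: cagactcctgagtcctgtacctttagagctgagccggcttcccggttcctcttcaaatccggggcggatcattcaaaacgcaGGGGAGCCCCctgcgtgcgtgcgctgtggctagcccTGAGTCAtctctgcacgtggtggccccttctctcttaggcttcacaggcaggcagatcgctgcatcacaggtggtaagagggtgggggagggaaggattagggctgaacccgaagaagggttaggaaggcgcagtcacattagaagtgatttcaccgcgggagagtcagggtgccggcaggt
Tnfsf14: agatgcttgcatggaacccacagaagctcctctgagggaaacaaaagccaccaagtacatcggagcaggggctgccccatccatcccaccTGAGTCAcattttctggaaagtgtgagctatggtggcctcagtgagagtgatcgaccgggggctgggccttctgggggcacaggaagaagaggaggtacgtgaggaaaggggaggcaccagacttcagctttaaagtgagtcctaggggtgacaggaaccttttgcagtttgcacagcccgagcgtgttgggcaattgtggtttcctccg

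Under saline, the comparison of CSS with CFS asks what the deletion changes without Ang II. None of the 32 tested members was called by limma in either direction, and 4 had an unadjusted p under 0.05 (Ltb, Tnfrsf11b, Tnfrsf23 and Tnfrsf25, all higher in CSS). Of all tested genes, 0.0136% were called in this comparison and 6.3% had an unadjusted p under 0.05. The groups did not overlap for 7 tested members, 5 higher and 2 lower in CSS, beside 11.1% and 9.31% of all tested genes. Tnfrsf25 was at 2.55, 2.70 and 3.19 FPKM in CSS and 1.71, 1.83 and 1.55 in CFS, without overlap (log2 fold change 0.69, SE 0.24, adjusted p 0.614). Tnfrsf11b was at 11.1, 17 and 14.3 FPKM in CSS and 8.10, 10.5 and 5.93 in CFS, also without overlap (log2 fold change 0.80, SE 0.33, adjusted p 0.735). Tnfrsf12a was at 84.1 to 106 FPKM in CSS and 47.2 to 68.1 FPKM in CFS (log2 fold change 0.63, SE 0.64, adjusted p 1), again with groups that did not overlap but no call. The 2 that were lower were Tnfrsf19, at 0.568 to 1.63 FPKM in CSS and 1.66 to 2.40 in CFS (log2 fold change -1.01, SE 0.52, adjusted p 0.858), and Tnfsf13 (-0.49, SE 0.62, adjusted p 1). For Tnfrsf12a, CSS mouse 55, the highest, and CFS mouse 68, the lowest, are the mice with skeletal muscle markers, and without them the groups were at 84.1 and 86.5 FPKM and 64.0 and 68.1 FPKM. The median log2 fold change of the members was 0.23, against 0.01 over all tested genes.

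For Ang II in CCN2fl/fl mice, CFA with CFS, no tested member was called by limma and 6 had an unadjusted p under 0.05 (Tnf, Ltb, Cd40, Tnfrsf11b, Tnfrsf13b and Tnfrsf23, all higher in CFA). Of all tested genes, 0.0273% were called and 9.42% had an unadjusted p under 0.05. The groups did not overlap for 8 members that were higher and 1 that was lower in CFA (Tnfrsf19, log2 fold change -1.09, SE 0.52, adjusted p 0.568), beside 9.44% and 10.8% of all tested genes. Tnfrsf23 came closest, at a log2 fold change of 1.26 (SE 0.23, adjusted p 0.0969). Cd40 (log2 fold change 1.0, SE 0.29, adjusted p 0.256) and Tnf (1.19, SE 0.40, adjusted p 0.359) had groups that did not overlap and were not called. CFA mouse 72 was the highest of its group for the 8 members higher without overlap and for Tnfrsf11b. Its macrophage and monocyte marker sum was 798 FPKM, against 417 and 381 in CFA mice 71 and 74. Its dendritic cell sum was 131 against 32.0 and 49.3, and its T cell sum 5.45 against 1.76 and 2.71. The part of these cells in the members' values was not tested. A missed threshold with 3 mice per group does not show equal levels.

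Ang II in CCN2SMCΔ mice, CSA with CSS, gave 15 members called higher and 2 lower, beside 10.9% and 9.36% of all tested genes called higher and lower. This comparison shares its CSA mice with CSA and CFA and is no separate evidence. The log2 fold changes were 3.75 for Tnf, 3.61 for Ltb, 5.61 for Tnfsf8, 2.10 for Tnfsf9, 4.75 for Tnfsf11 and 4.49 for Tnfsf14. For receptors they were 2.28 for Tnfrsf1b, 2.78 for Tnfrsf4, 2.67 for Cd40, 4.96 for Tnfrsf9, 3.31 for Tnfrsf13b, 1.93 for Tnfrsf21, 2.46 for Tnfrsf23, 2.66 for Relt and -2.45 for Tnfrsf19 (adjusted p by limma from 9.68e-06 to 0.00274 over these 15). Tnfsf11 was at 5.35 without CSS mouse 55. For Tnfsf8 and Tnfrsf9, with 3 fragments each over the CSS mice, the ratio of fragments per recovered depth was 461 (95% exact interval 157 to 2240) and 217 (73.9 to 1060), intervals that cover counting error only. Tnfrsf26 (log2 fold change 1.80, SE 0.42, adjusted p 0.00496) and Tnfrsf12a (-2.12, SE 0.64, adjusted p 0.0191) were called here and not between CSA and CFA. Without CSA mouse 03 both lost their call (1.48 and -1.21), and with array weights (1.47 and -1.22), as did Tnfrsf12a without CSS mouse 55 (-2.02) and, with a pseudocount of 1, Tnfrsf26 (1.25), Tnfsf9 (1.23), Tnfrsf21 (1.46) and Tnfrsf19 (-0.82).

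The interaction asks whether the genotype difference under Ang II differed from that under saline. It was called for 12 members, all higher (Tnf, Tnfsf8, Tnfsf9, Tnfsf11, Tnfsf14, Tnfrsf1b, Tnfrsf4, Cd40, Tnfrsf9, Tnfrsf13b, Tnfrsf21 and Relt), and lower for none, with 1 member lower at an unadjusted p under 0.05 (Tnfrsf12a), beside 19.6% of all tested genes. Of all tested genes, 7.89% were called higher and 7.31% lower, and 10 of the 12 members had passed the filter only with the help of CSA. The differences ran from 1.67 log2 units (Cd40, SE 0.42, adjusted p 0.0127) to 5.09 (Tnfsf8, SE 0.85, adjusted p 0.00144), and the sizes depend on the pseudocount. With a pseudocount of 1 they were 2.57 for Tnfsf8, 2.22 for Tnfsf11, 2.16 for Tnfrsf9, 2.0 for Tnfsf14, 1.88 for Tnf and 1.69 for Tnfrsf4. Ltb was not called in it (2.09, SE 0.87, adjusted p 0.105), and its CSS mice also lay above the CFS mean, nor was Tnfrsf23 (1.20, SE 0.33, adjusted p 0.0197). Relt was called at adjusted p 0.0414 by limma and lost its call when any 1 of 9 mice was left out. It also lost the call without the filter on low values (adjusted p 0.0751 by limma), where Fasl and Tnfrsf8 were added. Cd40 lost the call without CFA mouse 74 (1.40), and Cd40, Tnfsf9 and Tnfrsf21 lost it with a pseudocount of 1 (1.29, 1.29 and 1.41). Array weights added Ltb.

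**Figure D3:**
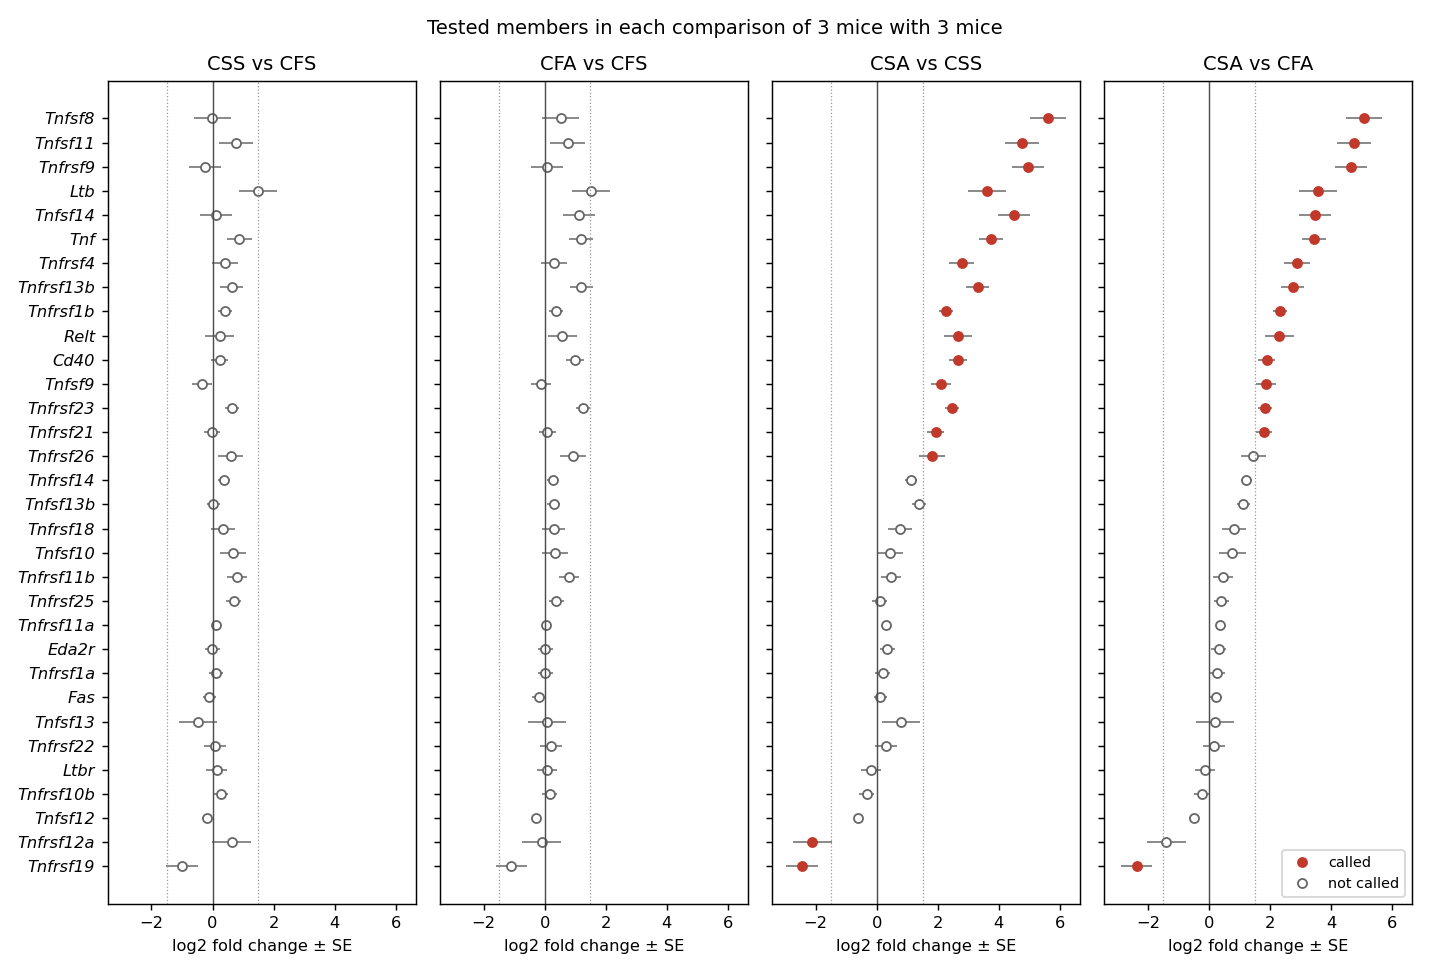
Log2 fold change ± SE of the 32 tested members in the 4 comparisons of 3 mice with 3 mice, with filled points for called members and dotted lines at the fold limit of 1.5. No point is filled in CSS vs CFS or CFA vs CFS, 17 are filled in CSA vs CSS and 15 in CSA vs CFA.

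All 15 members called between CSA and CFA stayed called without CSA mouse 03, and likewise without each other mouse of these groups, over the genes that passed the filter with all mice. With the filter reapplied to the remaining libraries, 9 of the 15 stayed called when CSA mouse 01, 02 or 03 was left out, and Tnf, Tnfsf8, Tnfsf11, Tnfsf14, Tnfrsf4 and Tnfrsf9 were no longer tested. Without mouse 03 the log2 fold changes against CFA went from -1.39 to -0.47 for Tnfrsf12a, from 0.28 to 0.64 for Tnfrsf1a (adjusted p 0.389 and 0.000577 by limma), from -0.13 to 0.38 for Ltbr, from 0.21 to 1.10 for Tnfsf13, from 0.81 to 1.31 for Tnfrsf18 and from 2.31 to 2.86 for Relt.

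**Figure D4:**
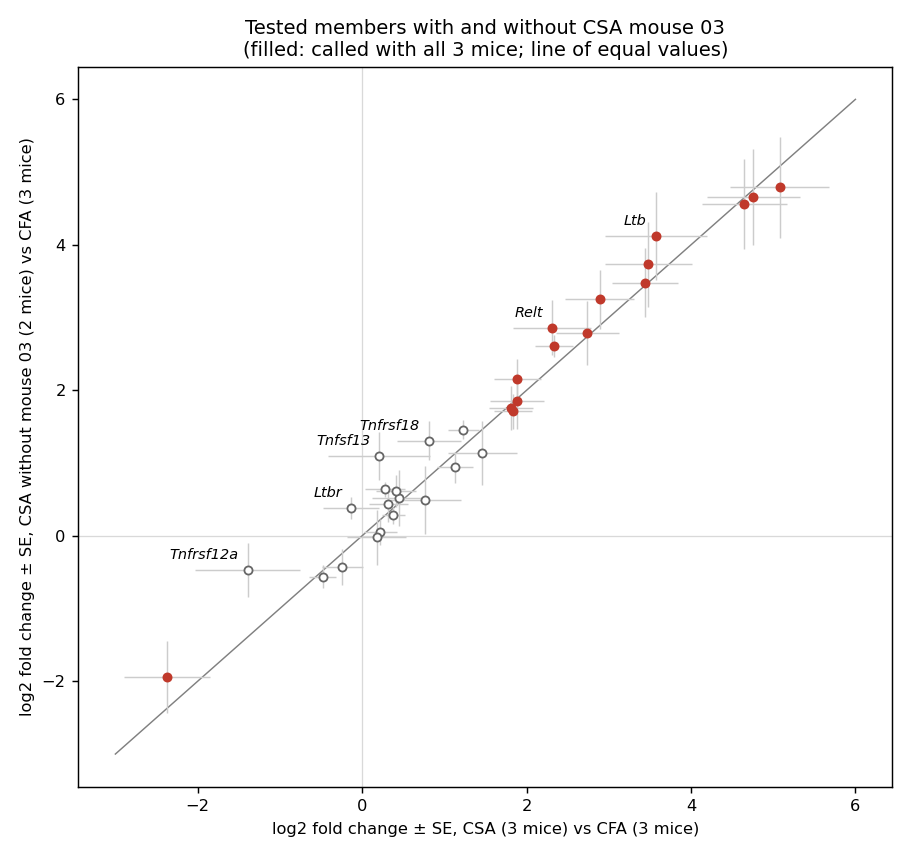
Log2 fold change ± SE of each tested member between CSA and CFA with all 3 CSA mice on the horizontal axis and without mouse 03 on the vertical axis, with filled points for members called with all 3 mice and a line of equal values. Most members lie close to the line, and Tnfrsf12a, Ltbr, Tnfsf13, Tnfrsf18, Ltb and Relt lie above it.

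Of 21 genes for receptor adaptors and kinases, 5 were called higher in CSA than in CFA and none lower, beside 8.95% and 8.27% of all tested genes. Their median log2 fold change was 0.49, beside -0.04 over all genes tested. The largest differences were those of Ripk3, the necroptosis kinase (log2 fold change 2.39 with an adjusted p of 0.000204 by limma, from 2.16 ± 0.931 FPKM in CFA to 11.5 ± 3.11 FPKM in CSA, SD, n = 3), Traf1 (2.07) and Map3k14, the kinase of noncanonical NF-κB signalling (1.78). Of 12 NF-κB subunits, inhibitors and feedback genes, 4 were called higher and none lower (median 0.97), led by Nfkbid (2.98), Bcl3 (1.99) and Rel (1.97). Of 13 tested TNF-inducible adhesion and chemokine genes, 8 were called higher and none lower (median 1.81), led by Cxcl10 (5.66), Ccl2 (5.54) and Cxcl2 (4.90). None of 7 sheddases and their regulators was called (median 0.00). Adam17, the TNF sheddase, was at 18.4 ± 4.14 FPKM in CSA and 9.22 ± 0.242 in CFA (log2 fold change 0.97, adjusted p 0.000471), Timp3, an inhibitor of TNF shedding, at 46.1 ± 5.82 FPKM in CSA and 126 ± 7.64 in CFA (log2 fold change -1.46, adjusted p 9.48e-06), and Rhbdf1 had a log2 fold change of -0.67 (adjusted p 0.0595). Of 12 p53 targets, 1 was called higher and none lower, close to the share of all tested genes, namely Pmaip1 (3.50), with 1.39 for Sesn2 and 0.74 for Mdm2, uncalled. Of the 9 osteoclast markers 4 were tested (median 0.51), and Itgb3, which platelets and other cells also express, was called lower (-1.90). Nfatc1 was at 9.25 to 10.4 FPKM in CSA and 5.52 to 6.42 in CFA, without overlap (log2 fold change 0.69, adjusted p 0.005), and was short of the fold limit. Acp5 (0.59, adjusted p 0.182) and Ctsk, at 93.3 to 103 and 62.2 to 84.6 FPKM, were not called. Of those under the filter, Ocstamp was at 0.375 to 0.902 FPKM in CSA and at most 0.18 elsewhere, and Calcr was listed at 0 in 11 libraries. The others overlapped between CSA and CFA. Dcstamp was at 0 to 0.549 FPKM in CSA and 0 to 0.212 in CFA, Atp6v0d2 at 0.33 to 0.889 and 0.287 to 0.59, and Oscar at 0 to 0.213 and 0.0497 to 0.255. Of 4 superfamily genes outside the member list, Eda, the ectodysplasin ligand, was called lower (-1.82, at 0.387 ± 0.139 FPKM in CSA and 1.60 ± 0.376 in CFA), Ngfr was not called (1.07, adjusted p 0.184), and the others were under the filter. In this list and the NF-κB, TNF-inducible and p53 lists, 1 tested gene each passed the filter only with the help of CSA. Such genes had to be high there, so the counts of called genes are descriptions. Receptor signalling was not measured, and the part of leukocytes in the values of these lists was not tested.

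Summed marker levels of leukocytes were also higher in CSA than in CFA. Of 14 macrophage and monocyte markers 12 were called higher in CSA than in CFA, and their summed level was 2610 to 2920 FPKM in CSA, 381 to 798 in CFA, 338 to 408 in CSS and 314 to 373 in CFS. Mertk, of the same list, was lower in CSA without overlap, at 11.2 to 20 FPKM against 20.4 to 31.6 in CFA. Many of the leukocyte markers passed the filter only with the help of CSA and had to be high there (4 of 8 tested neutrophil, 10 of 11 T cell, 3 of 4 NK cell, 4 of 9 B and plasma cell, 5 of 9 dendritic cell and 2 of 14 macrophage markers), so the counts of called markers are descriptions. All 8 tested neutrophil markers were called higher (534 to 583 FPKM summed in CSA, 13.9 to 33.2 in CFA), as were all 11 tested T cell markers (54.8 to 71.6 and 1.76 to 5.45) and all 4 tested NK cell markers (17.8 to 23.9 and 1.03 to 3.48). Of 9 tested B and plasma cell markers 6 were called (347 to 704 and 86.6 to 106), with Ms4a1 at 0.221 to 0.295 FPKM in CSA, and of 9 tested dendritic cell markers 6 (454 to 551 and 32.0 to 131). Most of the dendritic cell sum was H2-Ab1, at 417 to 504 FPKM in CSA and 23.1 to 112 in CFA, which other antigen-presenting cells also express. Of the same list, Itgax was at 14.0 to 19.9 FPKM in CSA and 0.593 to 2.97 in CFA, and Ccr7 at 8.25 to 11.1 and 0.167 to 1.36. Zbtb46 went the other way, at 1.67 to 2.06 FPKM in CSA and 3.05 to 3.70 in CFA. The B and plasma cell sum in CSA held 177 to 536 FPKM of Igkc. All 9 SMC markers were called lower (804 to 963 and 5610 to 8500), 3 of 9 endothelial markers were called lower and 1 higher, and of 9 fibroblast markers 1 was called lower (5220 to 6190 and 3230 to 3560). The fibroblast sum was carried mainly by Col1a1 (2560 to 3260 FPKM in CSA and 1380 to 1510 in CFA) and Col3a1 (1460 to 1850 and 913 to 1010), and Lum was at 467 to 625 and 166 to 231 FPKM, whereas Dpep1, the called one, was at 10.1 to 16.3 and 56.8 to 62.3 FPKM, Dpt at 91.4 to 140 and 224 to 291, and Pi16 at 30.1 to 66.6 and 97.3 to 125. Adipocyte markers were called lower for 2 of 7, and skeletal muscle markers for none of 4. All 5 tested erythrocyte markers were called lower, and none of 3 tested lymph node stroma markers was called. Of these 3, Cxcl13, Ccl21a and Lyve1 had log2 fold changes of 1.33, 0.91 and -0.87 (adjusted p 0.118, 0.207 and 0.0367 by limma). Lyve1 was at 7.19 to 16.1 FPKM in CSA and 14.2 to 25.6 in CFA. Under the filter, Madcam1 was at 0.23 to 0.591 FPKM in CSA and at most 0.149 elsewhere. Glycam1, also under it, was at 0 to 0.67 FPKM in CSA and listed at 0 elsewhere. The part of these cell types in the members' values was not tested.

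**Figure D5:**
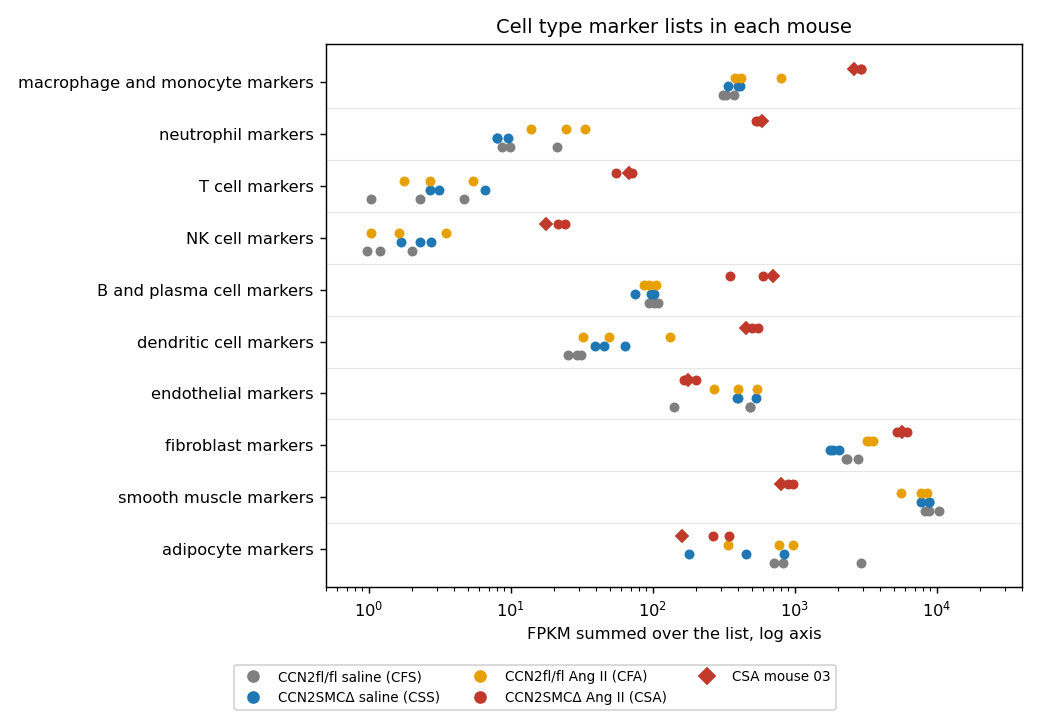
FPKM summed over each of 10 cell type marker lists in each of the 12 mice on a log axis, coloured by group, with CSA mouse 03 as a diamond. The CSA mice lie to the right of the other 9 for the 6 leukocyte lists and for the fibroblast sum, which Col1a1 and Col3a1 dominate, and to the left for SMC markers.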

How the data were processed

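RNA-Seq of 12 abdominal aortas, 1 mouse each, was analysed in 4 groups of 3 taken from the sample labels. The authors deposited FPKM per gene and mouse in 1 table of 55092 features, without pooling; 54532 carry a mouse Ensembl identifier, and 0 sample columns were left unused. The submitters' processing notes list HISAT2 2.0.5, StringTie 1.3.3b, featureCounts 1.5.0-p3 and build mm10, without role or order; the annotation is not given in the sources used here. Symbols, positions and exon lengths came from GENCODE M21 (GRCm38). With those lengths, 98.0% to 98.5% of values under 100 fragments per library were whole (tolerance 0.05), and their sums, 14558580 to 23107811 per mouse, served as depth. A value of 0 allows up to 3 fragments, for counting error only. Promoters came from RefSeq.

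Values were tested as log2(FPKM + 0.1), so fold changes of low genes are understated, in R 4.3.3 with limma 3.58.1 (eBayes with trend and robust settings, 1 coefficient per group, no covariate). Genes were tested where 3 or more libraries reached 1 FPKM. Benjamini-Hochberg adjustment ran over all 14676 tested genes (256 without an Ensembl identifier), separately in each of 5 comparisons. On simulated data for CSA and CFA, 191 of 200 genes changed 8-fold were called among 13721 tested, and 6 unchanged genes were called. The changed genes were drawn only from genes with higher mean values. Members that were low outside CSA are therefore not covered by this simulation. Coding sequences were aligned with Biopython 1.88, and figures were drawn with matplotlib 3.10.9 (Python 3.11.15, numpy 2.4.6, pandas 2.3.3).

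The members, the 20 other gene lists and the naming rule (every member, with values per mouse where called, and optionally the 3 tested genes of each other list that changed most) were chosen with earlier results of these data known, and further genes of those lists were named after their values were seen. Alternatives were a pseudocount of 1, no filter, a mean FPKM of at least 5, equal FPKM totals, eBayes without trend and robust settings, array weights, no fold limit, only the 2 groups compared, and leaving out each mouse. Reapplying the filter without a CSA mouse was added after seeing the data. Mice are taken as separate animals from their numbers. The values of 1 marker gene are not reported here.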

Additional observations from a re-analysis of the deposited data

Results flagged for a closer look

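For 12 members the genotype difference under Ang II and that under saline differed by the test of the interaction (limma, adjusted p under 0.05 and over 1.5 log2 units), beside 7.89% of all tested genes called higher. Of these 12, 10 passed the filter only with the help of CSA. The differences, Ang II minus saline, were 2.55 for Tnf, 5.09 for Tnfsf8, 2.22 for Tnfsf9, 4.01 for Tnfsf11, 3.36 for Tnfsf14, 1.91 for Tnfrsf1b, 2.48 for Tnfrsf4, 1.67 for Cd40, 4.90 for Tnfrsf9, 2.12 for Tnfrsf13b, 1.83 for Tnfrsf21 and 2.08 for Relt, all toward higher values in CSA. Single values were not screened for outliers within groups of 3 mice.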

How the results depend on the processing

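Of the 15 members called between CSA and CFA, all 15 stayed called with equal FPKM totals, with eBayes without trend and robust settings, with array weights, without the filter, without the fold limit and without any 1 mouse of these groups. A pseudocount of 1 kept 11 (Tnfsf9, Cd40, Tnfrsf21 and Tnfrsf19 lost the call, so that 0 were called lower and, between CSA and CSS, 1), and called Ltb in the interaction. A mean FPKM of at least 5 left 9 members tested and called 1 higher and 0 lower against CFA, 1 higher and 1 lower against CSS, and 1 higher in the interaction, because fewer members were tested. Fitting only the 2 groups compared left 0 called lower against CFA and against CSS, since Tnfrsf19 was then under the filter and Tnfrsf12a lost its call. Without the fold limit 2 were called lower against CFA, and array weights left 1 lower against CSS and ended the call of Tnfrsf26 there, whereas equal FPKM totals added Tnfrsf26 against CFA. Leaving out each mouse in turn gave 1 to 2 called lower against CFA (2 without CSA mouse 02, which added Tnfrsf12a) and 1 to 2 against CSS (1 without CSA mouse 03 or CSS mouse 55, which lost Tnfrsf12a), and 10 to 14 called in the interaction (10 without CFA mouse 74, and 14 without CSA mouse 03, which added Ltb and Tnfsf13). The filter was also reapplied after leaving out CSA mouse 01, 02 or 03, chosen after seeing the data. This gave 9, 9 and 8 called higher against CFA, 9, 10 and 9 against CSS, and 5, 5 and 8 in the interaction. In each of these fits Tnf, Tnfsf8, Tnfsf11, Tnfsf14, Tnfrsf4 and Tnfrsf9 were under the filter. Relt was tested but lost its interaction call without CSA mouse 01 or 02. Tnfrsf26 was added against CFA without CSA mouse 01 or 02. Against CSS, Tnfsf13b was added without mouse 02. Without mouse 03, Tnfsf13 was added there and Tnfrsf26 and Tnfrsf12a lost their call. Ltb and Tnfsf13 were added in the interaction without mouse 03. No paired analysis was possible because the groups share no mouse numbers. The log2 fold changes of 3 uncalled members changed sign between CSA and CFA: Tnfsf13 (-0.06 without CFA mouse 72, -0.26 and -0.20 without CSA mouse 01 and 02, against 1.10 without CSA mouse 03), Ltbr (0.25 with array weights, 0.38 without CSA mouse 03, against -0.41 without CSA mouse 01) and Tnfrsf22 (-0.17 with array weights, -0.01 without CFA mouse 72, -0.02 without CSA mouse 03). The cause was not tested. The median log2 fold change of the tested members was 1.18, and 0.95 with a pseudocount of 1, 1.46 without the filter, 0.28 at a mean of at least 5, and 0.52, 0.46 and 0.79 with the filter reapplied without CSA mouse 01, 02 and 03. Depth limits members with 3 or fewer fragments in a library.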
